A study of Homo sapiens with 36 samples.

Results

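The transcripts of the EGFR family, of the ligands that activate it and of 2 of its inhibitors were followed through RNA-seq of HCT-116 cells, an established human colorectal cancer line. The 9 genes, out of 62757 listed in each library, were the receptors EGFR, ERBB2 and ERBB3, the ligands AREG, EREG, HBEGF and TGFA, and the inhibitors ERRFI1 and LRIG1. They were chosen as a family, and ERRFI1 was in part chosen by its lower read counts in FBXW7-/- than in WT libraries of this series. The values of that contrast are therefore given as a description, without a test.

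FBXW7 is the substrate-recognition subunit of an SCF ubiquitin ligase, and the study asked how its loss and the removal of the deacetylase HDAC4 change the response to oxaliplatin (OXPT), a platinum drug that damages DNA. The design used here had 8 groups of 3 libraries. In 3 backgrounds of the FBXW7-/- line (KO), cells carried a control esiRNA (esiCT), an esiRNA against HDAC4 (esiHDAC4), or the control esiRNA plus compound #11, a PROTAC that drives HDAC4, and other class IIa HDACs, to degradation. The fourth background was the WT line, in libraries titled siCT. Transfection lasted 48 h and, in 1 group of each background, 50 µM OXPT was present for the last 24 h. The untreated groups lacked OXPT, and the methods describe the solvents of both compounds as their controls. Whether the KO line was 1 clone is not given in the sources used here, and the label entries for #11 give its concentration as 1 µM in one place and 10 µM in another. The treatment entries of the WT siCT libraries name esiHDAC4, so the esiRNA of the WT cells was not settled, while the OXPT state agreed in all entries.

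EGFR, ERBB2 and ERBB3 are receptor tyrosine kinases that work as dimers. Their ligands are made as membrane-anchored precursors and are released by metalloproteases such as ADAM17, after which they act on the cell itself or on its neighbours. AREG and TGFA bind EGFR, EREG and HBEGF bind EGFR and ERBB4, ERBB2 has no known ligand of its own, and ERBB3 binds neuregulins and signals mainly through its partner. Downstream lie the RAS-RAF-MEK-ERK and PI3K-AKT cascades. ERRFI1, also known as MIG6, is a cytoplasmic protein that blocks the EGFR kinase domain and is itself induced by the pathway, and LRIG1 is a membrane protein that promotes receptor degradation. In colorectal cancer AREG and EREG are best known as ligands studied in relation to antibodies against EGFR.

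The 24 libraries held between 10725966 and 20527222 reads assigned to genes, with a median of 14510758. Levels are given as CPM, the reads of a gene scaled to a common library total with TMM factors, and the 3 libraries of a group are listed in the order of their replicate numbers. The labels do not say that the replicates were separate cultures, so the p-values measure the spread between these libraries, which may be technical. The libraries had the markers of an epithelial line, with EPCAM between 215 and 360 CPM. Of the other cell types' markers PTPRC stayed at or below 0.146 CPM, PECAM1 at or below 0.666 CPM and COL1A2 at or below 0.792 CPM, while COL1A1 ranged from 25.1 to 77.6 CPM. FBXW7 itself had 13.9 to 55.1 CPM in the 18 KO libraries and 13.5 to 42.3 CPM in the 6 WT libraries, and because the edit is a short deletion, gene-level counts do not check it. HDAC4 was at 14.0 to 24.9 CPM with esiCT and 8.80 to 14.9 CPM with esiHDAC4 in the untreated KO line, ranges that overlapped. With OXPT it was at 5.71 to 7.50 CPM with esiCT and 3.33 to 4.19 CPM with esiHDAC4, without overlap. Of these cultures, a lower level in bulk RNA cannot tell fewer expressing cells from less RNA per cell.

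By AREG, a pair of libraries stood apart before any comparison. The WT untreated library of replicate 3 had 4828 CPM of AREG, against 415 and 422 CPM in its group. The KO esiCT library of replicate 3 with OXPT had 1992 CPM of AREG, against 427 and 461 CPM, together with the lowest TMM factor, 0.789, and the highest share of unmapped reads, 22.3%, against a lowest share of 7.74%. Results that rest on this pair are given with and without it. Replicate 3 also lay far from replicates 1 and 2 in other groups. The chi-square per degree of freedom of their read counts was 144 and 110 in WT with OXPT. It was 127 and 75.2 in KO with esiHDAC4 and OXPT. For the pair it was 110 and 224 (WT untreated) and 152 and 128 (KO esiCT with OXPT). Since all groups share 1 estimate of the spread, the first of them also widens the error of AREG and HBEGF in the KO comparisons.

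Per kilobase of exon, AREG was the most abundant of the 9 transcripts, with a median over the 24 libraries of 334 CPM per kb. ERRFI1 followed at 88.1, EREG at 50.6, TGFA at 17.0, HBEGF at 9.08, ERBB2 at 7.76, ERBB3 at 3.37 and EGFR at 3.10 CPM per kb. On this scale the medians of the ligands and ERRFI1 exceeded those of the receptors, although the ranges of HBEGF, 3.30 to 19.98, and ERBB2, 5.34 to 10.2 CPM per kb, overlapped. The length was the union of all annotated exons, 2990 bases for HBEGF and 10321 for ERBB2, and the order depends on it. In CPM, without the length, ERBB2 had 55.1 to 106 and HBEGF 9.87 to 59.8. LRIG1 had at most 64 reads in a library and a median of 0.164 CPM per kb. It did not reach the mean of 64 reads in at least 1 group that was required for testing, so 8 of the 9 genes were tested among 12356 genes.

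AREG and EREG lie next to each other in the ligand cluster on chromosome 4, in the order EPGN, EREG, AREG and BTC. In GRCh38 with GENCODE 44, EREG (ENSG00000124882.4) spans chr4:74365145-74388749 on the plus strand, AREG (ENSG00000109321.11) spans chr4:74445136-74455005 on the plus strand, and 56.4 kb separate them. ERRFI1 (ENSG00000116285.13) spans chr1:8004404-8026309 on the minus strand, and 155 bases of its exons overlap an unnamed gene on the plus strand. Reads over those bases are ambiguous in counts taken without strand, and ambiguous reads were left out. The 250 bases before the RefSeq start of these 3 genes (GRCh38.p14) are shown because EREG had the most calls, AREG is its neighbour and ERRFI1 is the inhibitor that fell with OXPT in KO cells with #11. They run 5′ to 3′ on the strand of the gene, at chr4:74444886-74445135 for AREG, chr4:74364895-74365144 for EREG and chr1:8026310-8026559 for ERRFI1, and capitals mark the motifs found.

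AREG: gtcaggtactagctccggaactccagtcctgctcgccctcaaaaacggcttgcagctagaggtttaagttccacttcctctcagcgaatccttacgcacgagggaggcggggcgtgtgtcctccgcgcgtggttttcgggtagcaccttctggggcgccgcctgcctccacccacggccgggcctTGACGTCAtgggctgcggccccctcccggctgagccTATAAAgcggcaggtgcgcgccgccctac
EREG: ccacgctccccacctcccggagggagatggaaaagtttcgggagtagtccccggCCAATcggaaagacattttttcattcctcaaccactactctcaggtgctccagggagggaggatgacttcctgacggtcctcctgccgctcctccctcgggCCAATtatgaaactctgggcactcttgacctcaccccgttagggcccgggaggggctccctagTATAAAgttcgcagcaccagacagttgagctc
ERRFI1: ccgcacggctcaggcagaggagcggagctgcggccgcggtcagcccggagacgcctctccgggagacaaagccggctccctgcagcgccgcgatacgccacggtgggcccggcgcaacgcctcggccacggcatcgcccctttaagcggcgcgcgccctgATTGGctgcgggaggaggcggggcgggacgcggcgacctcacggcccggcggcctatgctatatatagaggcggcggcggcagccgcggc

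Motifs were searched on both strands of these windows. The CRE TGACGTCA stood in AREG from position -65 to -58 before the start, and 1.77% of 27303 promoter windows of the same length hold it. The TATA box, searched only as TATAAA, stood in AREG at -29 to -24 and in EREG at -32 to -27, against 11.1% of all windows. Other forms were not searched, such as the tatatata near the end of the ERRFI1 window. CCAAT stood in EREG at -196 to -192 and at -95 to -91, and in ERRFI1, on the other strand and so printed as attgg in capitals, at -90 to -86, against 33.0% of all windows. The AP-1 motif TGANTCA was found in none of these 3 windows (6.60% of all), nor was the E-box CACGTG (6.49%). These matches describe letters in the windows and were not tested for use. Windows were found for 8 of the 9 members, of which only AREG and EREG held TATAAA and only AREG held TGACGTCA.

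OXPT lowered EREG in all 4 backgrounds and ERRFI1 in KO cells with #11. A rise passed the test for TGFA in KO cells with esiCT and for HBEGF in KO cells with esiHDAC4. The difference in response between esiHDAC4 and esiCT was not called for either gene, at -0.24 (SE 0.32) for TGFA and 0.19 (SE 0.665) for HBEGF. With the replicate number as a block, each rise passed with esiCT and with esiHDAC4. The receptors and AREG did not pass the test in any background. A gene passed with an adjusted p under 0.05 and a change of over 1.5-fold. The WT and KO esiCT libraries, untreated and with OXPT, are taken as those used in the choice of ERRFI1. Its values in comparisons that hold WT or KO esiCT libraries are therefore a description, with no p-value, and it is left out of the counts there. The choice was for lower counts in KO, with no background named. If the esiHDAC4 and #11 libraries took part as well, the ERRFI1 tests among them carry the same limit. Of the 7 other genes tested, 1 rose and 1 fell in KO with esiCT, where 11.3% of all genes tested were called (6.23% higher, 5.08% lower), and of all 8, 1 rose and 1 fell in KO with esiHDAC4 (12.0% of all, 6.44% higher, 5.54% lower). None rose and 2 fell in KO with #11 (9.51% of all, 5.94% higher, 3.57% lower), and of the 7 without ERRFI1 none rose and 1 fell in WT (10.7% of all, 5.10% higher, 5.60% lower). The untreated and OXPT libraries did not overlap for 4 of the 7 genes with esiCT (30.1% of all genes), 5 of the 8 with esiHDAC4 (35.4%), 3 of the 8 with #11 (42.5%) and 1 of the 7 in WT (21.3%). The median log2 fold change was 0.17 for the 7 genes with esiCT, -0.04 for the 8 with esiHDAC4, -0.37 for the 8 with #11 and -0.06 for the 7 in WT, beside medians over all genes tested of 0.01, 0.02, 0.00 and -0.06.

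In KO cells with esiCT, EREG, which encodes epiregulin, had 314, 352 and 320.0 CPM untreated and 173, 102 and 145 CPM with OXPT. With esiHDAC4 it had 549, 589 and 538 CPM untreated and 304, 151 and 145 CPM with OXPT. With #11 it had 831, 913 and 781 CPM untreated and 107, 140.1 and 178 CPM with OXPT. In WT cells it had 274, 602 and 689 CPM untreated and 143, 168 and 153 CPM with OXPT. Within each background every OXPT library lay below every untreated library. The log2 fold change was -1.23 (SE 0.30, adjusted p = 0.0107) with esiCT, -1.48 (SE 0.30, adjusted p = 0.0028) with esiHDAC4, -2.57 (SE 0.32, adjusted p = 2.51e-05) with #11 and -1.75 (SE 0.31, adjusted p = 0.000754) in WT, by edgeR's quasi-likelihood F test with Benjamini-Hochberg adjustment over all genes tested. With any 1 of the 24 libraries left out, all 4 calls held. The WT call was lost when only the 2 WT groups were fitted (adjusted p = 0.0925).

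By mean level EREG was ordered as #11 (842 ± 67.1 CPM, SD, n = 3), esiHDAC4 (559 ± 26.9), WT (521 ± 219) and esiCT (329 ± 20.6) without OXPT, followed by esiHDAC4 (200.2 ± 90.3), WT (155 ± 12.3), #11 (142 ± 35.5) and esiCT (140 ± 35.4) with OXPT. In that order #11 and esiHDAC4 did not overlap, nor did untreated esiCT and esiHDAC4 with OXPT, and all other neighbours did. The 4 untreated groups were spread between 274 and 913 CPM, and the 4 groups with OXPT between 102 and 304 CPM.

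ERRFI1 fell with OXPT in KO cells with #11. With #11 it had 906, 925 and 845 CPM untreated and 164, 173 and 313 CPM with OXPT, a log2 fold change of -2.04 (SE 0.31, adjusted p = 0.00022, edgeR). In WT cells it had 718, 1076 and 1922 CPM untreated and 523, 505 and 325 CPM with OXPT, a log2 fold change of -1.46 (SE 0.31), or -0.99 (SE 0.28) without the WT untreated library that stood apart. In KO cells with esiCT it had 414, 363 and 435 CPM untreated and 359, 234 and 279 CPM with OXPT, a log2 difference of -0.48 (SE 0.30). The WT and esiCT values are the descriptions named above. With esiHDAC4 it had 374, 326 and 449 CPM untreated and 287, 215 and 301 CPM with OXPT, which gave -0.52 (SE 0.30, adjusted p = 0.297). In all 4 backgrounds the OXPT libraries lay below the untreated ones without overlap, and the esiHDAC4 difference did not pass the test.

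By mean level ERRFI1 was ordered as WT (1239 ± 618 CPM, SD, n = 3) and #11 (892 ± 41.6) without OXPT, WT with OXPT (451 ± 109), esiCT (404 ± 37.3) and esiHDAC4 (383 ± 62.0) without OXPT, and esiCT (291 ± 63.2), esiHDAC4 (268 ± 46.4) and #11 (217 ± 83.2) with OXPT. Of these neighbours, untreated #11 and WT with OXPT were the ones that did not overlap.

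**Figure D1:**
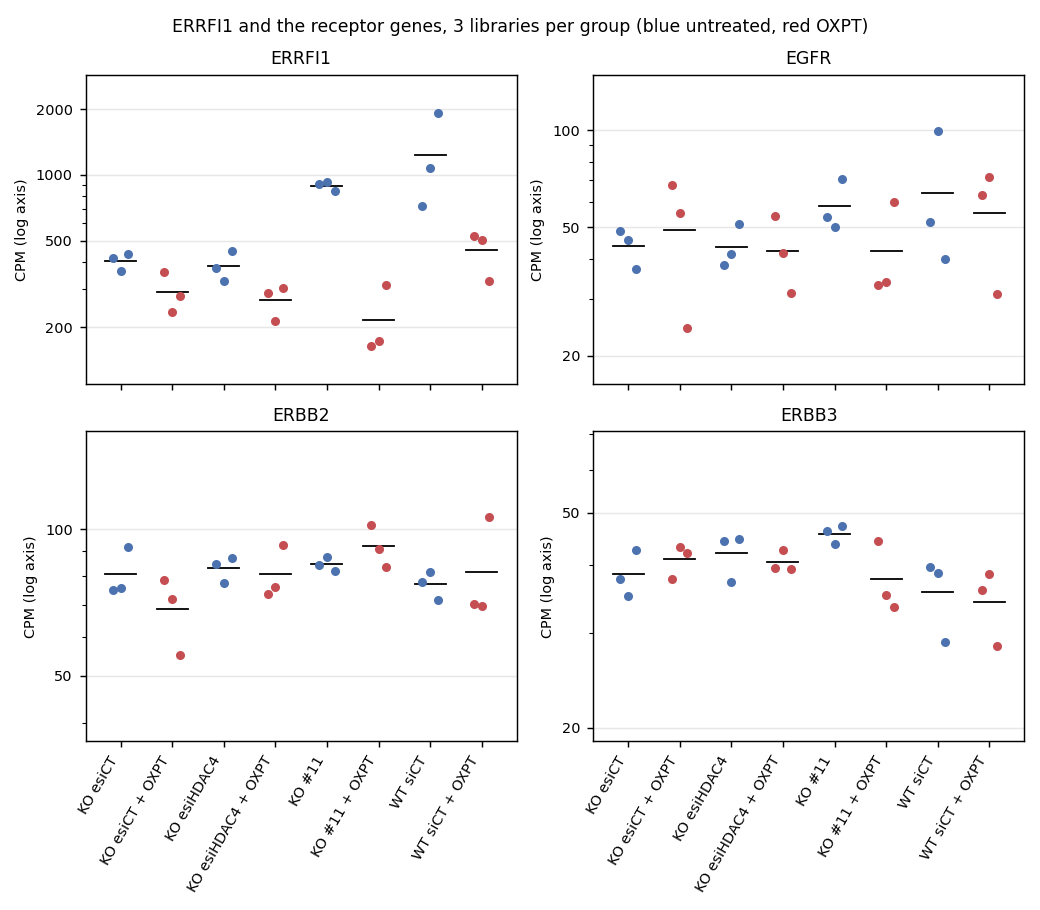
CPM (log axis) of ERRFI1, EGFR, ERBB2 and ERBB3 in each library of the 8 groups, with blue points for untreated and red points for OXPT libraries and a black bar at the mean of 3. ERRFI1 in untreated KO cells with #11 lies between 845 and 925 CPM and falls to between 164 and 313 CPM with OXPT, while ERBB3 stays between 28.3 and 47.2 CPM in all libraries.

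TGFA and HBEGF moved the other way with OXPT in KO cells with esiCT or esiHDAC4. TGFA, the ligand transforming growth factor alpha, had 45.4, 50.9 and 75.1 CPM untreated and 111, 99.1 and 106 CPM with OXPT in KO cells with esiCT, and it rose by a log2 fold change of 0.88 (SE 0.23, adjusted p = 0.0161, edgeR). With esiHDAC4 it had 54.3, 61.1 and 69.6 CPM untreated and 109, 89.2 and 89.8 CPM with OXPT, which gave 0.64 (SE 0.23, adjusted p = 0.0747). Those groups did not overlap. With #11 it had 82.5, 84.5 and 101 CPM untreated and 74.2, 92.8 and 122 CPM with OXPT, which overlapped (log2 fold change 0.11, SE 0.23, adjusted p = 0.821). In WT cells it had 43.6, 68.4 and 81.6 CPM untreated and 77.0, 101 and 98.7 CPM with OXPT (0.52, SE 0.23, adjusted p = 0.163), and the groups overlapped. The esiCT call was lost without the KO esiCT untreated replicate 1 (adjusted p = 0.102) or 2 (adjusted p = 0.0788), and with the replicate number as a block the esiHDAC4 difference passed (log2 fold change 0.67, SE 0.19, adjusted p = 0.0199).

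HBEGF, the heparin-binding ligand, had 10.6, 11.3 and 14.6 CPM untreated and 34.3, 37.9 and 38.0 CPM with OXPT in KO cells with esiHDAC4, and it rose by a log2 fold change of 1.60 (SE 0.48, adjusted p = 0.0334, edgeR). With esiCT it had 10.7, 12.7 and 13.5 CPM untreated and 28.7, 26.9 and 42.6 CPM with OXPT, which gave 1.41 (SE 0.48, adjusted p = 0.0611) and passed with the replicate number as a block (1.37, SE 0.38, adjusted p = 0.0176). In both backgrounds the groups lay apart. With #11 it had 32.5, 34.5 and 27.4 CPM untreated and 24.5, 24.0 and 41.2 CPM with OXPT, which overlapped (-0.07, SE 0.47, adjusted p = 0.947). In WT cells it had 9.87, 11.6 and 59.8 CPM untreated and 23.1, 29.7 and 54.2 CPM with OXPT, which gave 0.40 (SE 0.47, adjusted p = 0.65). Without the WT untreated library that stood apart, the WT log2 fold change was 1.74 (SE 0.33, adjusted p = 0.0015), and the esiCT one was 1.40 (SE 0.29, adjusted p = 0.00212). That fit kept WT OXPT replicate 3, the highest of its group. Within replicate 3 the WT level went from 59.8 to 54.2 CPM with OXPT, so the WT value of 1.74 compares unlike sets of replicates. The esiHDAC4 call held with 19 of the 24 libraries left out 1 at a time, and was lost without any 1 of 5 of the 6 libraries compared.

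AREG, which encodes amphiregulin, did not pass the test in any background, and its WT direction rested on 1 library. In KO cells with esiCT it had 274, 207 and 353 CPM untreated and 427, 461 and 1992 CPM with OXPT (log2 fold change 1.79, SE 0.69, adjusted p = 0.101, edgeR). With esiHDAC4 it had 337, 242 and 387 CPM untreated and 554, 544 and 722 CPM with OXPT (0.91, SE 0.68, adjusted p = 0.431). In both the OXPT libraries were higher without overlap. With #11 it had 1252, 1232 and 850 CPM untreated and 621, 518 and 676 CPM with OXPT, so that the OXPT libraries were lower without overlap (-0.88, SE 0.68, adjusted p = 0.475). In WT cells it had 415, 422 and 4828 CPM untreated and 679, 892 and 1293 CPM with OXPT (-0.98, SE 0.68, adjusted p = 0.405).

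Without the WT untreated replicate 3 the WT difference of AREG turned to 1.20 (SE 0.49, adjusted p = 0.0925), and the 3 OXPT libraries then lay above both remaining untreated ones. WT OXPT replicate 3, the highest of its group, was kept, and within replicate 3 AREG went from 4828 to 1293 CPM. In that fit the esiCT difference, 1.78 (SE 0.43), passed (adjusted p = 0.00759), but it was 0.67 (SE 0.66, adjusted p = 0.657) without the KO esiCT OXPT replicate 3. With both libraries left out, a choice made after the data were seen, AREG was higher with OXPT in WT (1.19, SE 0.27, adjusted p = 0.005) and in KO with esiHDAC4 (0.89, SE 0.24, adjusted p = 0.0116), lower with #11 (-0.90, SE 0.24, adjusted p = 0.0129), and 0.70 (SE 0.26, adjusted p = 0.0906) in KO with esiCT.

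**Figure D2:**
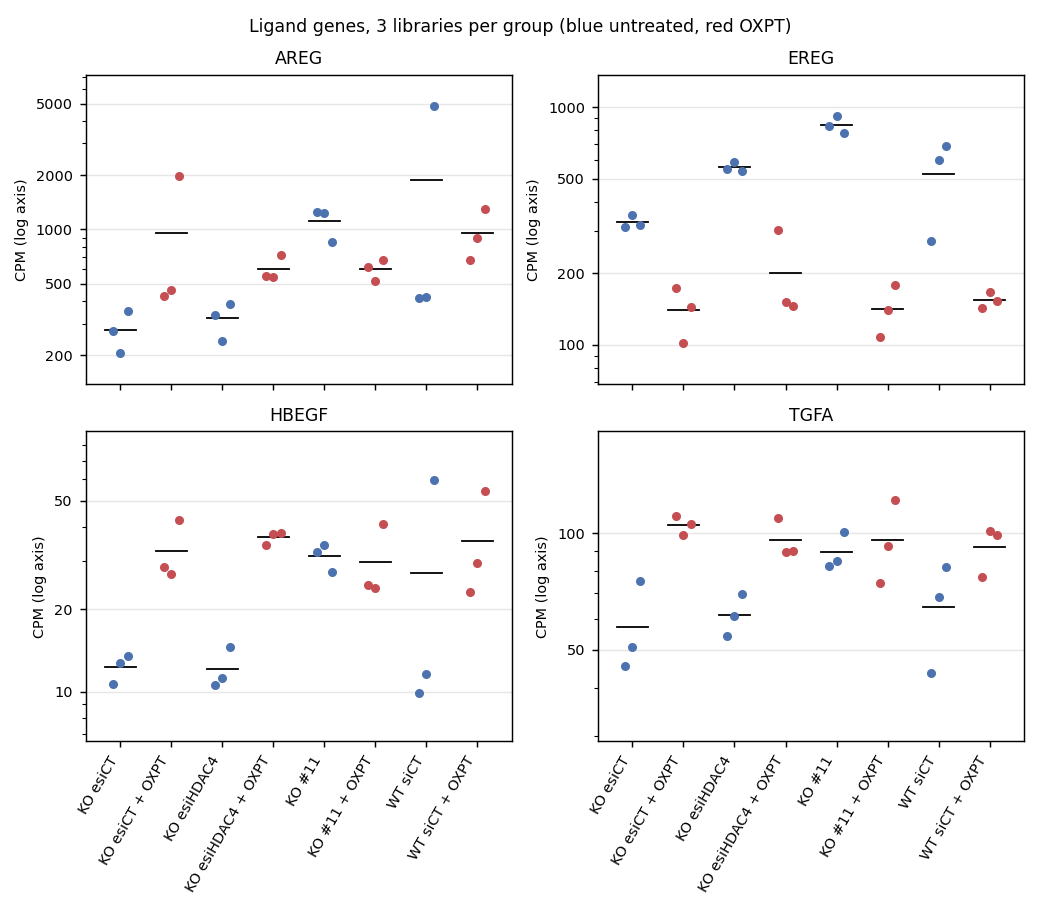
CPM (log axis) of the 4 ligand genes in each library of the 8 groups, with blue points for untreated and red points for OXPT libraries and a black bar at the mean of 3. EREG is lower with OXPT in every background, and the AREG panel shows the WT untreated library at 4828 CPM and the KO esiCT library with OXPT at 1992 CPM.

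The receptors did not pass the test for OXPT in any background. EGFR had 48.8, 45.7 and 37.2 CPM untreated and 67.8, 55.4 and 24.4 CPM with OXPT in KO cells with esiCT, and 52.1, 99.4 and 39.8 CPM against 63.0, 71.6 and 31.1 CPM in WT cells. Its log2 fold changes ran from -0.46 (SE 0.38, adjusted p = 0.503) with #11 to 0.17 (SE 0.38, adjusted p = 0.822) with esiCT, and the groups overlapped in each background. With SEs near 0.38, the 95% interval in KO with esiCT ran from -0.62 to 0.95. ERBB2 lay between 55.1 and 106 CPM in all libraries, with OXPT differences from -0.24 (SE 0.17) with esiCT to 0.12 (SE 0.17) with #11. ERBB3 lay between 28.3 and 47.2 CPM, with differences from -0.28 (SE 0.17) with #11 to 0.09 (SE 0.17) with esiCT. LRIG1 had 2 to 64 reads in the untreated libraries and 0 to 24 reads with OXPT, or 0.198 to 3.38 and 0 to 1.18 CPM. It shares 2669 of its 7043 exonic bases with SLC25A26 on the other strand. Reads over those bases were ambiguous without strand and left out, which lowers its counts.

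**Figure D3:**
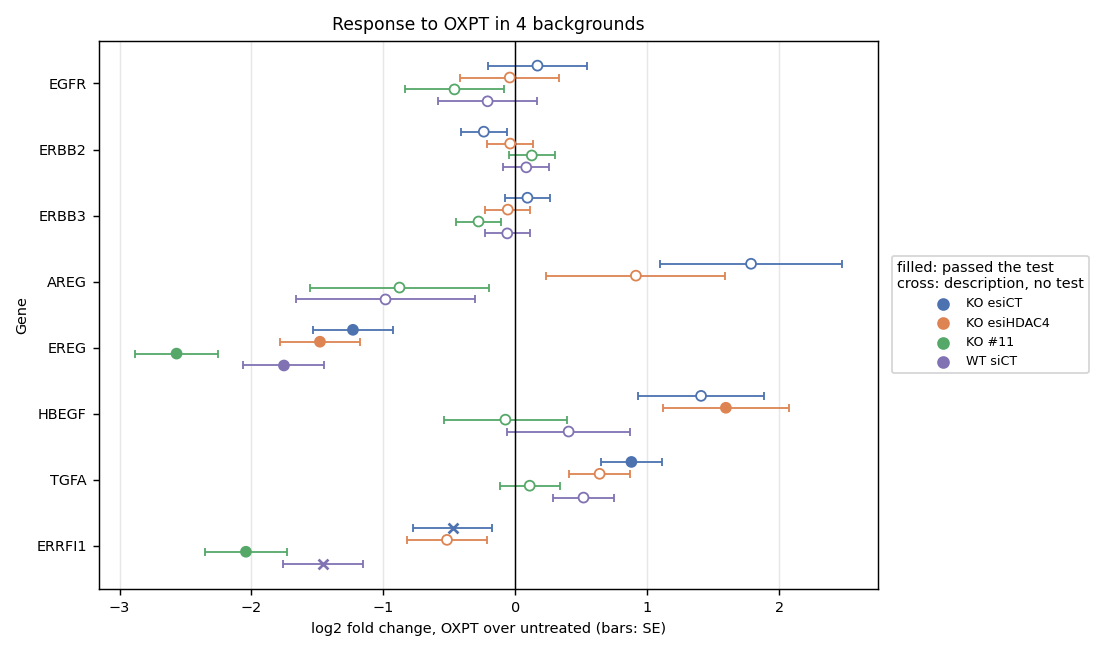
Log2 fold change of OXPT over untreated libraries for the 8 genes tested in the 4 backgrounds, with bars for the SE and filled points for differences that passed the test and crosses for ERRFI1 values given without a test. EREG lies between -2.57 and -1.23 in all 4 backgrounds and is filled in each, and the receptors lie within -0.46 to 0.17.

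Compound #11 was then compared with esiCT in untreated KO cells. Same-numbered #11 and esiCT libraries did not deviate together from their group means (correlations -0.25 to 0.11), while esiHDAC4 and esiCT libraries did (0.28 to 0.79). If #11 was run on a separate set of cultures, compound and set cannot be told apart. This holds for all comparisons of #11 with the esiRNAs. EREG had 314, 352 and 320.0 CPM with esiCT and 831, 913 and 781 CPM with #11 (log2 fold change 1.36, SE 0.30, adjusted p = 0.0459, edgeR). EREG was the 1 member called of the 7 tested without ERRFI1, where 0.510% of all genes were called. AREG was between 207 and 353 CPM with esiCT and between 850 and 1252 CPM with #11, a log2 fold change of 2.00 (SE 0.70, adjusted p = 0.179). ERRFI1 was between 363 and 435 CPM with esiCT and between 845 and 925 CPM with #11, a difference of 1.14 (SE 0.30), given without a p-value because the esiCT libraries entered its choice. HBEGF was between 10.7 and 13.5 CPM with esiCT and between 27.4 and 34.5 CPM with #11 (1.35, SE 0.48, adjusted p = 0.18), and TGFA was between 45.4 and 75.1 CPM and between 82.5 and 101 CPM (0.64, SE 0.23, adjusted p = 0.186).

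For the 4 ligands, EGFR and ERBB3 every #11 library lay above every esiCT library, which makes 6 of the 7 genes without ERRFI1, where 17.2% of all genes tested did so. EGFR differed by 0.41 (SE 0.38, adjusted p = 0.704), ERBB3 by 0.25 (SE 0.17, adjusted p = 0.567) and ERBB2 by 0.07 (SE 0.17, adjusted p = 0.915). The median log2 fold change of the 7 genes was 0.64, beside 0.00 over all genes tested. The EREG call was close to the threshold. It held with 10 of the 24 libraries left out 1 at a time, with adjusted p from 0.0159 to 0.22, and not with reverse-strand counts (adjusted p = 0.0583). Without the WT untreated replicate 3, which is in neither group but sets part of the shared spread, AREG (2.00, SE 0.43, adjusted p = 0.0155) and HBEGF (1.36, SE 0.28, adjusted p = 0.0132) passed as well.

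With OXPT in both arms, #11 and esiCT did not differ by the test for any of the 7 members without ERRFI1, where 0.121% of all genes were called. EREG differed by 0.02 (SE 0.30, 95% interval -0.60 to 0.64), HBEGF by -0.13 (SE 0.47, interval -1.10 to 0.84) and TGFA by -0.13 (SE 0.23, interval -0.60 to 0.35). The ERRFI1 value, -0.42 (SE 0.30, interval -1.05 to 0.20), is a description. AREG differed by -0.67 (SE 0.68), or by 0.41 (SE 0.27, adjusted p = 0.427) with both libraries that stood apart left out. ERBB2 was the 1 gene with an unadjusted p under 0.05. It had 78.5, 71.8 and 55.1 CPM with esiCT and 102, 91.0 and 83.7 CPM with #11, without overlap (0.43, SE 0.18, adjusted p = 0.413), as was the case for 14.3% of all genes in either direction.

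The difference between the OXPT responses with #11 and with esiCT was tested as an interaction. No member passed, and no gene of the 12356 did (0% called), and 4 of the 7 members without ERRFI1 had an unadjusted p under 0.05, as had 6.98% of all genes. The interaction was -1.34 (SE 0.42, adjusted p = 0.438) for EREG, -2.67 (SE 0.97, adjusted p = 0.543) for AREG, -1.48 (SE 0.67, adjusted p = 0.683) for HBEGF and -0.77 (SE 0.32, adjusted p = 0.623) for TGFA, by edgeR. That of ERRFI1, -1.57 (SE 0.43), is a description. All were below zero, so each of these transcripts responded lower to OXPT with #11 than with esiCT by its fitted value. Since the interaction contains the untreated #11 against esiCT difference, it is not a separate line of evidence from that comparison. The value of AREG was -2.69 (SE 0.60, adjusted p = 0.0556) without the WT untreated replicate 3, -1.58 (SE 0.89, adjusted p = 0.68) without the KO esiCT OXPT replicate 3, and -1.60 (SE 0.35, adjusted p = 0.0492) with both left out.

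**Figure D4:**
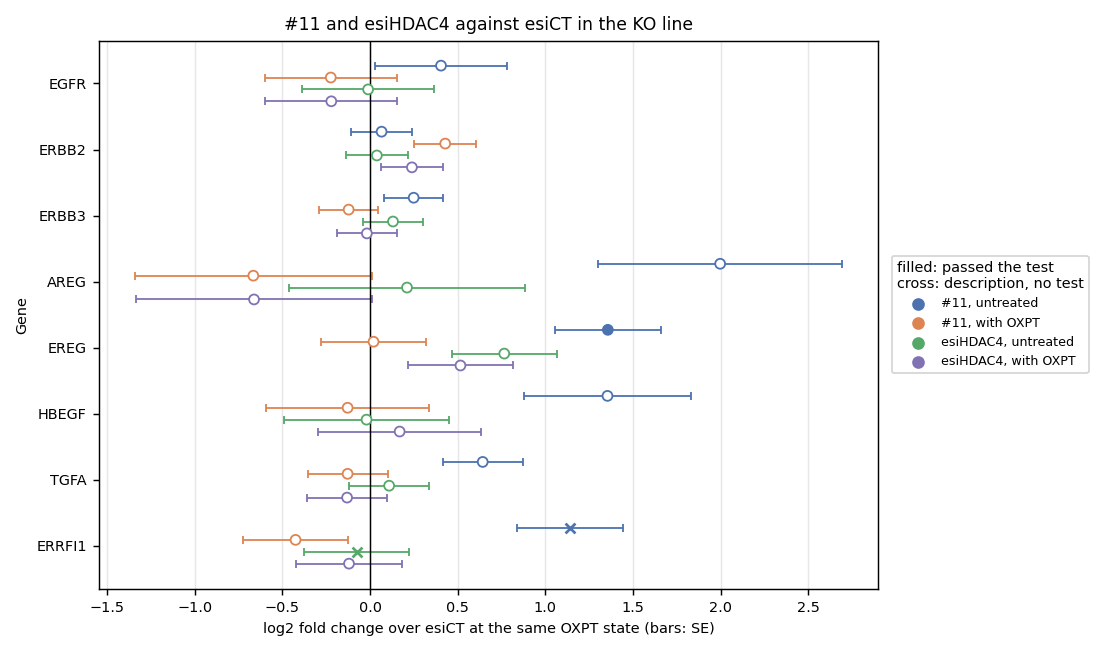
Log2 fold change over esiCT in KO cells for #11 and esiHDAC4, each without and with OXPT, with bars for the SE and filled points for differences that passed the test and crosses for ERRFI1 values given without a test. The open ERRFI1 points, those with OXPT, are a description as well. For #11 without OXPT the 4 ligands and ERRFI1 lie between 0.64 and 2.00 with EREG filled, and with OXPT these 5 genes lie between -0.67 and 0.02.

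The esiRNA against HDAC4 gave no call against esiCT among the 7 members without ERRFI1, whose values here are a description. In untreated KO cells 0.00809% of all genes, 1 gene, was called against esiCT, and with OXPT 0% were called. EREG was the 1 member with an unadjusted p under 0.05 in untreated cells. It had 549, 589 and 538 CPM with esiHDAC4 and 314, 352 and 320.0 CPM with esiCT, without overlap (log2 fold change 0.77, SE 0.30, adjusted p = 1, edgeR), and 21.7% of all genes did not overlap in this comparison. AREG differed by 0.21 (SE 0.67), HBEGF by -0.02 (SE 0.47), TGFA by 0.11 (SE 0.23) and ERRFI1 by -0.08 (SE 0.30, 95% interval -0.70 to 0.55), and their groups overlapped. With OXPT no member had an unadjusted p under 0.05, the values of EREG being 304, 151 and 145 CPM with esiHDAC4 and 173, 102 and 145 CPM with esiCT (0.52, SE 0.30). No interaction of esiHDAC4 with OXPT was called (0% of all genes), and the members' values ran from -0.87 (SE 0.95) for AREG to 0.20 (SE 0.25) for ERBB2. The AREG value turned to 0.23 (SE 0.89) without the KO esiCT OXPT replicate 3.

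A direct comparison of #11 with esiHDAC4 in untreated KO cells, where 1.17% of all genes were called, gave no member past the threshold. The limit on separate sets of cultures applies here too. ERRFI1 was closest, with 906, 925 and 845 CPM against 374, 326 and 449 CPM (1.22, SE 0.30, adjusted p = 0.0538, edgeR). HBEGF differed by 1.37 (SE 0.48, adjusted p = 0.161), AREG by 1.79 (SE 0.69, adjusted p = 0.216), TGFA by 0.53 (SE 0.23, adjusted p = 0.274) and EREG by 0.59 (SE 0.30, adjusted p = 0.37). For all 5 the #11 libraries lay above the esiHDAC4 libraries without overlap, where 21.4% of all genes did so. Without the WT untreated replicate 3, ERRFI1 (1.21, adjusted p = 0.0103), HBEGF (1.36, adjusted p = 0.00994) and AREG (1.78, adjusted p = 0.0236) passed. With OXPT 0.0971% of all genes and no member were called, and the members' differences ran from -0.50 (SE 0.30) for EREG to 0.19 (SE 0.17) for ERBB2.

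In untreated cells ERRFI1 was lower in KO than in WT, with 414, 363 and 435 CPM against 718, 1076 and 1922 CPM and no overlap. The fitted log2 difference was -1.62 (SE 0.31), and 0.291% of all genes were called in this contrast, which is part of how ERRFI1 was chosen. With OXPT it had 359, 234 and 279 CPM in KO and 523, 505 and 325 CPM in WT, and these overlapped (-0.63, SE 0.30, 0.138% of all genes called). AREG was also lower without overlap in untreated KO cells (-2.76, SE 0.72), as were 3.52% of all genes, with 207 to 353 CPM against 415, 422 and 4828 CPM, and it was -0.59 (SE 0.46) without the WT untreated replicate 3. With OXPT the AREG difference was 0.01 (SE 0.67), or -1.12 (SE 0.69) without the KO esiCT OXPT replicate 3. The untreated ERRFI1 difference was -1.15 (SE 0.28) without the WT untreated replicate 3. EREG differed by -0.67 (SE 0.30) untreated and -0.14 (SE 0.30) with OXPT, and HBEGF by -1.13 (SE 0.48) and -0.13 (SE 0.47), all with overlap. Without the WT untreated replicate 3 the untreated HBEGF difference turned to 0.20 (SE 0.32). The receptors lay within -0.54 (SE 0.38) for EGFR and 0.11 (SE 0.17) for ERBB3 untreated. KO with #11 and no OXPT had 845 to 925 CPM of ERRFI1, inside the untreated WT range of 718 to 1922 CPM.

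The interaction of genotype and OXPT was called for no gene (0%). AREG had the largest member value, 2.77 (SE 0.97, adjusted p = 1, edgeR), which was 0.58 (SE 0.62) without the WT untreated replicate 3 and -0.49 (SE 0.37) with both libraries that stood apart left out. The value of ERRFI1, 0.98 (SE 0.43), is a description for the reason given above. HBEGF had 1.00 (SE 0.66), which turned to -0.34 (SE 0.42) without the WT untreated replicate 3, EREG 0.52 (SE 0.42) and TGFA 0.36 (SE 0.32).

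Across the 24 libraries AREG and EREG varied with little relation to each other. The Pearson correlation of their log2 CPM was 0.06, as a description of libraries that share groups, depth and scaling. HBEGF went with TGFA (0.82) and AREG (0.81), and EREG with ERRFI1 (0.74). The correlations in this paragraph include both libraries that stood apart and were not computed without them. The 3 protein-coding genes most like each member by the same measure were SEC22C (0.93), COMMD10 (0.91) and EXOSC8 (0.90) for EREG, NFIL3 (0.90), GNG5 (0.89) and HS3ST1 (0.86) for ERRFI1, and BTG1 (0.90), ISG20 (0.90) and GOLT1A (0.90) for AREG. For HBEGF they were MAFF (0.96), LAT2 (0.95) and ARC (0.93), and for TGFA they were NABP1 (0.89), CCN2 (0.86) and SLC30A1 (0.85). Among the receptors, the most alike gene was ACVR1B (0.86) for ERBB2 and GABBR1 (0.76) for ERBB3.

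**Figure D5:**
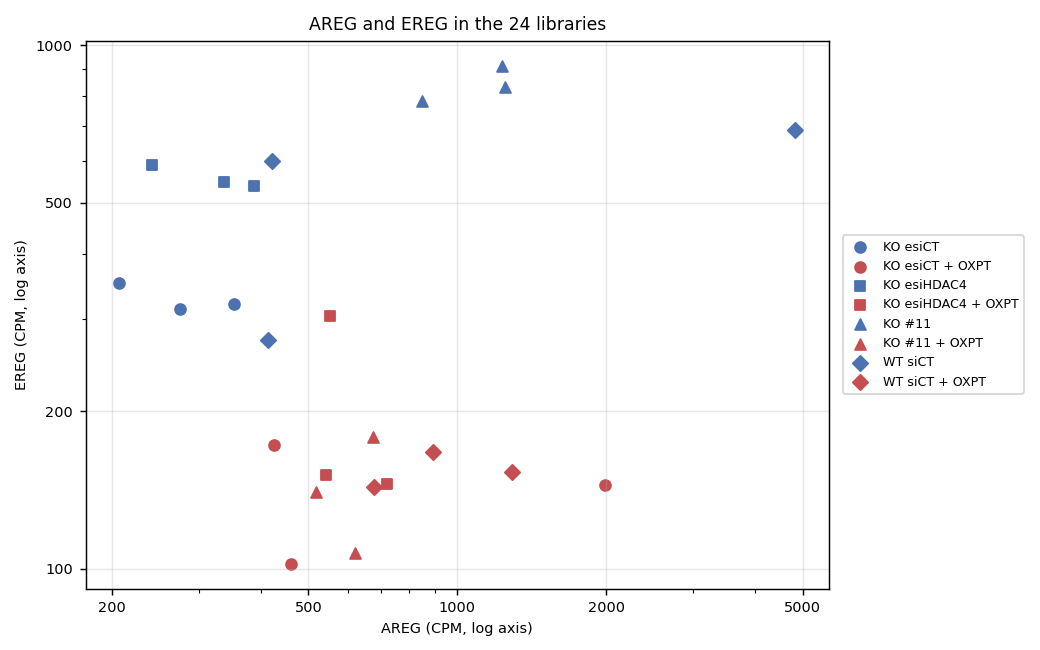
CPM of AREG against EREG (both log axes) in the 24 libraries, with a marker shape for each background and blue for untreated and red for OXPT. The red points lie at 102 to 304 CPM of EREG over an AREG range of 427 to 1992 CPM, and the untreated #11 libraries lie highest in EREG.

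Of 45 other genes of the pathway, from ligands to ERK and AKT, 38 were tested, and calls appeared in the OXPT comparisons alone. Betacellulin (BTC), the ligand gene 289.8 kb beyond AREG, was scarce, with group means from 0.940 to 14.1 CPM. BTC met the count minimum in 3 untreated KO groups and in no OXPT group, so its lower level with OXPT is given as a description and is left out of the counts. GAB1 met the minimum in 1 untreated group and no OXPT group, and NRG1 in 1 OXPT group and no untreated group. Neither was called, and both stay in the counts and medians of the 37 genes below. The log2 differences that follow are those of BTC. They were, for OXPT over untreated, -1.94 (SE 0.44) with esiCT, -1.97 (SE 0.42) with esiHDAC4, -2.25 (SE 0.41) with #11 and -2.12 (SE 0.44) in WT. RHBDF2, an inactive rhomboid that carries ADAM17 to the cell surface, rose in all 4 backgrounds by 0.74 (SE 0.20), 0.77 (SE 0.20), 0.96 (SE 0.20) and 0.73 (SE 0.20) in the same order. Its paralog RHBDF1 rose with esiCT (1.08, SE 0.28, adjusted p = 0.0141) and with esiHDAC4 (1.20, SE 0.28, adjusted p = 0.00664). Thus 2 of the 37 genes without BTC rose with esiCT and with esiHDAC4, 1 rose with #11 and in WT, and none fell, in each case a smaller share than over all genes.

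The other adaptors, kinases and turnover genes of that list gave no call. The median log2 fold change of the 37 with OXPT was -0.21 with esiCT, -0.28 with esiHDAC4, -0.26 with #11 and -0.36 in WT. EGF, EPGN, ERBB4, NRG2, NRG3, NRG4 and PIK3R2 were below the count minimum. Whether EREG and BTC responded differently from AREG was not tested.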

How the data were processed

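The 24 RNA-seq libraries used here were polyA-enriched with a strand-marking kit. The deposited files hold whole-number read counts per gene in the layout of STAR, which the authors made after trimming (STAR 2.7.11a and Trimmomatic 0.39, per the labels) and which differ from the transcript quantification described in the methods of the study. Each file gives the count without strand and for each strand. The unstranded count was used, because the reverse-to-forward ratio was 1.00 to 1.02 and 35.7% to 43.7% of reads had no feature in the reverse column, against 2.58% to 5.79% without strand, so antisense overlaps cannot be told apart. Reads not assigned to a gene were left out, and 10.6% to 12.2% were ambiguous. Of the 62757 gene identifiers, 62130 matched GENCODE 44 with their version and 62686 without. No pair of replicates agreed within sampling noise (chi-square per degree of freedom 8.31 to 224 over 24 pairs).

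All 24 libraries entered 1 edgeR quasi-likelihood model (edgeR 4.0.16, limma 3.58.1, R 4.3.3) with 1 coefficient per group and TMM factors, for the 12356 genes with a mean count of at least 64 in 1 or more groups. A call needed a fold over 1.5 and an edgeR p, adjusted by Benjamini-Hochberg over all genes tested, under 0.05. All p-values in the text come from this fit or a named alternative. Every member was named in every comparison, together with at most the 4 largest called pathway genes and the 3 genes most correlated with each member (for ERBB2 and ERBB3 the first of them, and for EGFR this result is not reported here). The members and lists were chosen with earlier results of these data known. Same-numbered replicates deviated together in the OXPT, esiHDAC4 against esiCT and WT comparisons (correlations of deviations over 0.1 in every pair, from 0.18 to 0.69 for OXPT in WT), and not in those of #11 without or with OXPT against the esiRNAs. The pairing comes from the data, not the labels. DESeq2 1.42.0 and other alternatives were run. The fit was tested on simulated data. In 12 WT libraries the title and the treatment entry give opposite OXPT states, so they entered no comparison.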

Additional observations from a re-analysis of the deposited data

How the results depend on the processing

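Over the alternatives run for the 8 members tested, the EREG decrease with OXPT held in the 3 KO backgrounds and the ERRFI1 decrease with OXPT held in KO cells with #11. In comparisons with WT or KO esiCT libraries ERRFI1 is a description and is left out of the counts. The exceptions are the counts from leaving out each library in turn and from the block, which include it. In WT, 1 of the 7 members without ERRFI1 was called, and fitting the WT groups alone gave 0, as the EREG call was lost. In KO with esiCT, 2 members were called and DESeq2 called 4. In KO with esiHDAC4, 2 were called, and 4 without a count minimum or with both libraries that stood apart left out. Also in WT, AREG and LRIG1 joined without a count minimum, both lower. With both libraries left out AREG, HBEGF and TGFA joined, where AREG turned from -0.98 to 1.19. For #11 against esiCT in untreated KO, EREG was called, also with DESeq2 but not with reverse-strand counts. AREG and HBEGF joined it without a count minimum, with only the groups compared or with both libraries left out. For #11 against esiHDAC4 in untreated KO, 0 were called (4 members and 14.7% of all genes had an unadjusted p under 0.05), and 1 with DESeq2, 3 without a count minimum or with both libraries left out, and 4 with only the groups compared. The genotype interaction gave 0 calls (2 members and 1.63% of all genes with an unadjusted p under 0.05) and 1 without a count minimum, and the interaction of #11 and OXPT gave 0 (5 members and 6.98% of all genes with such a p), 2 without a count minimum and 1 with both libraries left out. Leaving out each library in turn gave 1 to 4 calls in KO with esiCT, 1 to 3 with esiHDAC4, 2 to 2 with #11, 2 to 4 in WT, 0 to 4 for #11 against esiCT and 0 to 3 for #11 against esiHDAC4 in untreated KO, and 0 to 0 elsewhere. Without WT untreated replicate 3, AREG and HBEGF joined in KO with esiCT, HBEGF and TGFA in WT, AREG and HBEGF in both untreated comparisons of #11, and ERRFI1 in that against esiHDAC4. Without KO esiCT untreated replicate 1 or 2 the TGFA call with esiCT was lost (adjusted p = 0.102 and 0.0788, edgeR). RLE size factors changed no call. The cause of these shifts was not tested.

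With the replicate number as a block, HBEGF with esiCT and TGFA with esiHDAC4 passed for OXPT. In the comparisons of #11 the numbers did not pair the samples, and there the block gave 4 calls against esiCT and 2 against esiHDAC4 in untreated KO. It changed no other call of a member. Over all genes, OXPT in KO with esiCT called 1398 genes, and 553 with only the groups compared. OXPT in WT called 1322, 84 with only the groups compared and 2661 with both libraries left out. OXPT in KO with #11 called 1175, 2636 with only the groups compared and 1876 with both libraries left out, and OXPT in KO with esiHDAC4 called 1480 and 2342 with both left out. Leaving out 1 library at a time gave 779 to 1880 genes with esiCT, 807 to 1912 with esiHDAC4, 555 to 1494 with #11 and 829 to 2105 in WT. For #11 against esiCT in untreated KO the count was 63, 50 with reverse-strand counts, 397 with the block, 409 with DESeq2, 480 without a count minimum, 566 with only the groups compared and 585 with both libraries left out. Against esiHDAC4 it was 145, 70 with reverse-strand counts and 1751 with only the groups compared. Leaving out 1 library gave 0 to 338 genes against esiCT (0 without replicate 1 or 2 of either group, 338 without WT untreated replicate 3) and 1 to 475 against esiHDAC4 (1 without KO esiHDAC4 untreated replicate 1, 475 without WT untreated replicate 3). With OXPT it gave 1 to 27 and 1 to 70. With OXPT the counts of #11 were 15 against esiCT and 12 against esiHDAC4, 0 in both with only the groups compared and 367 and 535 without a count minimum. For esiHDAC4 against esiCT they were 1 untreated and 0 with OXPT, and 40 and 9 with DESeq2. The interactions had 0, and without a count minimum 24 for genotype and 65 for #11. Every ligand had 123 or more reads in each library, and LRIG1, with 0 to 64, was not tested.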

Other observations

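The 12 WT libraries whose labels disagree on OXPT were scaled together with the other 24 and are given as values only. AREG ran from 566 to 4331 CPM with a median of 1563, against 202 to 4746 CPM in the 24 libraries on the same scale. EREG ran from 105 to 1706 CPM (median 291), and its highest value lay above the 889 CPM that was the highest of the 24. ERRFI1 ran from 222 to 2239 CPM (median 767), also beyond the highest of the 24, 1890 CPM. HBEGF lay between 9.81 and 86.2 CPM (median 36.5) and TGFA between 47.6 and 154 CPM (median 87.9). Among the receptors, EGFR lay between 25.3 and 72.9 CPM, ERBB2 between 55.8 and 97.5 CPM and ERBB3 between 21.2 and 40.1 CPM.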
